A study of Homo sapiens with 9 samples.

Results

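Thrombospondins and the other matricellular genes followed here are 10 genes, THBS1, THBS2, THBS3, THBS4, TNC, SPARC, SPARCL1, SPOCK1, FN1 and FBN1, and all 10 were found by symbol among the 25084 genes of the expression table. The set was chosen by measured values in part: THBS2 had been seen to be lower in both knockdowns, and the others were added by family and function. The values of THBS2 are therefore given as a description, without a test, in every comparison. Of the 10 genes, 8 passed the filter on low values (at least 1 CPM in at least 3 libraries) and could be tested; THBS1 and SPARCL1 did not.

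RNA was measured in LAN5, an established human neuroblastoma cell line with an amplified MYCN gene. Cells received a control siRNA (siCTR), a single siRNA against MYCN (named siMYCN_2 in the labels) or a single siRNA against HAND2 (siHAND2_3) by electroporation and were harvested 72 h later, with 3 libraries in each group. Both targets encode basic helix-loop-helix transcription factors, and the study asked which genes they regulate. Values are CPM, reads of a gene scaled to a common total of assigned reads, and each library had 21.1 to 32.7 M assigned reads. Nothing in the labels says whether the replicates were separate cultures, so p-values measure the spread between these libraries, which may be technical.

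Matricellular proteins are secreted into the extracellular matrix but act more as signals than as scaffolds: they bind receptors, growth factors and structural fibres and tune how cells attach. Thrombospondins are large calcium-binding glycoproteins. THBS1 and THBS2 form trimers, carry type 1 repeats and restrain the growth of blood vessels through CD36 and CD47, whereas THBS3 and THBS4 form pentamers and lack those repeats. Tenascin-C (TNC) is an adhesion-modulating hexamer of developing and injured tissue. SPARC, SPARCL1 and SPOCK1 (testican-1) share a calcium-binding domain, and fibronectin (FN1) and fibrillin-1 (FBN1) are fibre-forming proteins of the matrix.

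The promoter windows of THBS2, TNC and FN1, members with wide differences between the groups, are shown because they hold the short motif that helix-loop-helix factors recognise, or lack it. Each window runs from 250 bases before to 50 bases after the start site in RefSeq, on the GRCh38.p14 build and on the minus strand, printed 5′ to 3′. Capitals mark CANNTG (the E-box, the same on both strands), TATAAA and TGACGTCA (the cyclic AMP response element). Windows were found for 9 of the 10 genes (11 windows), with SPOCK1 the exception.
THBS2, chr6:169253797-169254096: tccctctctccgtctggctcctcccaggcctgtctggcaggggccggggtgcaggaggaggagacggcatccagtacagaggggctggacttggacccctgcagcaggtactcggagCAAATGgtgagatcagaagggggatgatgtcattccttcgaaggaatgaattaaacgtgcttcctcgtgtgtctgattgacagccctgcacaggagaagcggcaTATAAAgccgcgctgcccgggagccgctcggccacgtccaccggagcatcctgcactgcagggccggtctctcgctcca
TNC, chr9:115118108-115118407: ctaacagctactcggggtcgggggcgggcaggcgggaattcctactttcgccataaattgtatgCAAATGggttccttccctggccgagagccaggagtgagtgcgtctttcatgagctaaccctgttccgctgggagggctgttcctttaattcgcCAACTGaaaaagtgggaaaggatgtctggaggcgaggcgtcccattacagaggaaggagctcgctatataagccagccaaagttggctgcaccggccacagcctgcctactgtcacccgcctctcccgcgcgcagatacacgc
FN1, chr2:215436019-215436318: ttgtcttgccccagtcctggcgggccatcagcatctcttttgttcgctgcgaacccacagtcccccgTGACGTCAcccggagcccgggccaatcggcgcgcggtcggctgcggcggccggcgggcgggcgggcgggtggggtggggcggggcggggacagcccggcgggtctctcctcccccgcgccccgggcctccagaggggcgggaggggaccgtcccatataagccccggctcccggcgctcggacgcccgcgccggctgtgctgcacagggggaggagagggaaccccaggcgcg

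The THBS2 window held 1 E-box, CAAATG, 133 bases before the start site, and a TATAAA 29 bases before it. TNC held 2 E-boxes, CAAATG at 186 and CAACTG at 93 bases before the start, and FN1 held none. Among all 35116 windows of that length, 68.7% held at least 1 CANNTG, so its presence does not set these genes apart. The MYC-type form CACGTG was found in 7.26% of all windows and, among the members, in THBS4 only, 39 bases before its first start site. FN1 carried TGACGTCA at 183 bases before the start, a motif held by 1.85% of all windows, and TATAAA (either strand) was in 11.5%. No TGANTCA, the AP-1 motif, was in a member's window (7.71% of all windows). The RefSeq start sites lie 198 (THBS2), 100 (TNC) and 5 bases (FN1) inside the gene starts of the expression table. By that table's coordinates, the CAAATG and TATAAA of THBS2 and the CAACTG of TNC lie within the gene. These matches describe letters in the windows and no binding was measured.

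Before the members were compared, the targets were read in each library. MYCN ranged from 1786 to 1894 CPM in the controls, from 1245 to 1338 CPM under its own siRNA and from 877 to 969 CPM under siHAND2. HAND2 measured 489 to 516 CPM, 557 to 588 CPM and 267 to 280.4 CPM in the same order. Each siRNA thus went with less of its own transcript, in part only, and MYCN was lower in siHAND2 than in siMYCN. Neuroblast markers varied in level, with ELAVL4 at 975 CPM, DBH at 263 CPM and TH at 2.95 CPM in siCTR, and no tested gene came from the Schwann cell, endothelial or macrophage lists, whose summed levels stayed at or below 3.79 CPM in every library.

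Ordered by CPM per kb of transcript, a level that can be compared between genes, TNC led the members in siCTR with 16.7 ± 0.935 CPM per kb (SD, n = 3 libraries, as for every ± below). SPOCK1 followed with 11.6 ± 1.09 and FN1 with 11.1 ± 0.255 CPM per kb, and the libraries of this pair overlapped. THBS2 was next with 7.65 ± 0.298 CPM per kb, ahead of SPARC with 5.15 ± 0.687. THBS3 had 1.78 ± 0.17, FBN1 1.44 ± 0.13 and THBS4 0.588 ± 0.0304 CPM per kb. THBS1 (0.0454 ± 0.00857) and SPARCL1 (0.0233 ± 0.0104) lay at the bottom. Every pair of neighbours in this order other than SPOCK1 and FN1 was apart in all siCTR libraries. THBS2 was thus the most abundant of the 4 thrombospondins in control LAN5 cells, and THBS1, the best-known member of that family, was the scarcest. In siMYCN and in siHAND2, SPARC stood above THBS2 with no overlap, at 4.97 ± 0.266 against 3.57 ± 0.322 and at 4.52 ± 0.0716 against 4.08 ± 0.101 CPM per kb. FN1 stood above SPOCK1 in both knockdowns, at 15.2 ± 1.39 against 9.79 ± 0.299 and at 17.6 ± 1.19 against 6.36 ± 0.361 CPM per kb.

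**Figure D1:**
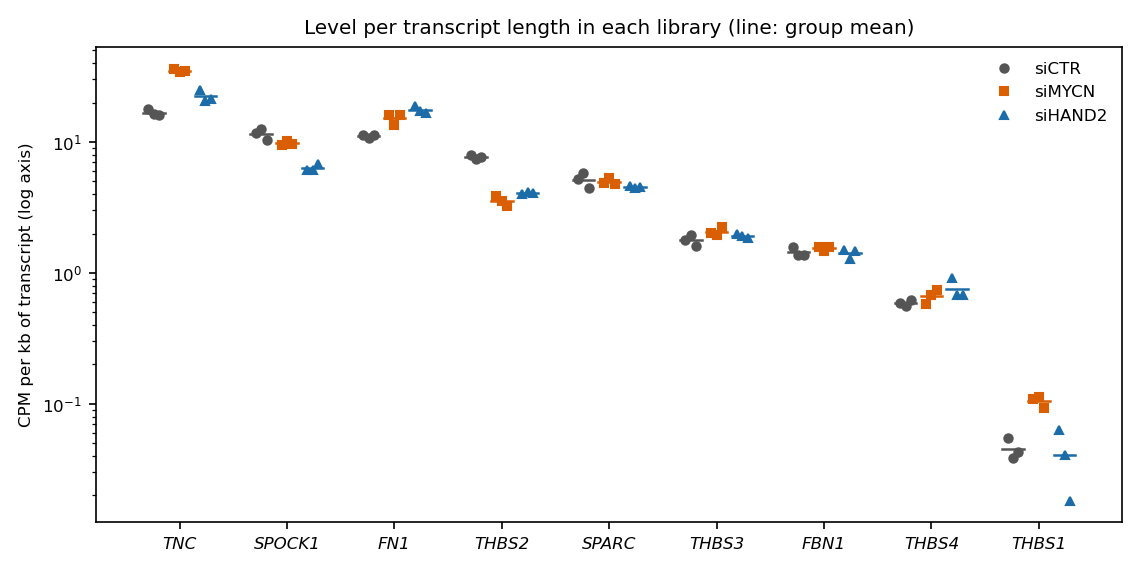
Level per transcript length of 9 members (CPM per kb, log axis) in each library, with group means as lines; SPARCL1, with 0 to 5 reads per library, is not drawn. TNC is highest in all 3 groups, and THBS2 passes from above SPARC in siCTR to below it in both knockdowns.

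THBS2 encodes thrombospondin-2, which limits angiogenesis and helps organise collagen fibrils. Its gene lies on chromosome 6 (169215780 to 169254044, minus strand, GRCh38), and it was measured at 45.4, 42.0 and 43.5 CPM in the siCTR libraries. With siMYCN the levels were 22.2, 20.3 and 18.5 CPM, and with siHAND2 they were 22.6, 23.8 and 23.4 CPM. All 6 knockdown libraries lay far below all 3 controls, and the 3 siHAND2 values lay just above the 3 siMYCN values. The mean level was 46.7% of control in siMYCN and 53.4% in siHAND2, differences of -1.07 and -0.88 on the log2(CPM + 1) scale. Differences as large in either direction were seen in 0.248% and 1.43% of the 14495 tested genes. These are the values that led to the choice of this set, and both comparisons use the same 3 control libraries. In bulk RNA, fewer cells that express a gene and less RNA in each cell cannot be told apart.

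The knockdowns were also compared with each other, a contrast whose difference does not use the control values. The control libraries still enter its standard error and p-value, as all 9 libraries were fitted together. THBS2 was higher in siHAND2 by 0.19, and by 0.12 to 0.25 with 1 library left out. Its values in both knockdowns led to its choice, so this difference is a description, without a test. A gene on the other strand, BX322234.1, overlaps THBS2, and its level was 0.319 to 0.905 CPM over the 9 libraries. The 5 genes whose levels tracked THBS2 most closely over the 9 libraries (Pearson r of log2(CPM + 1), for genes averaging 5 CPM or more) were COQ8A (r = 0.99), MIPEP (0.989), BCHE (0.989), DKC1 (0.987) and PGAM1 (0.986). COQ8A supports coenzyme Q synthesis, MIPEP is a mitochondrial peptidase, BCHE is butyrylcholinesterase, DKC1 modifies ribosomal RNA and PGAM1 is a glycolytic enzyme. COQ8A ranged from 51.2 to 52.8 CPM in the controls, from 29.6 to 32.7 with siMYCN and from 32.8 to 36.1 with siHAND2. These 5 were the closest of 11200 genes compared, and the 9 points of each correlation are the same libraries in 3 groups. A high r does not mean a change as large. PGAM1 was at 88.5% of control in siMYCN and 90.4% in siHAND2, and DKC1 at 75.1% and 79.9%.

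**Figure D2:**
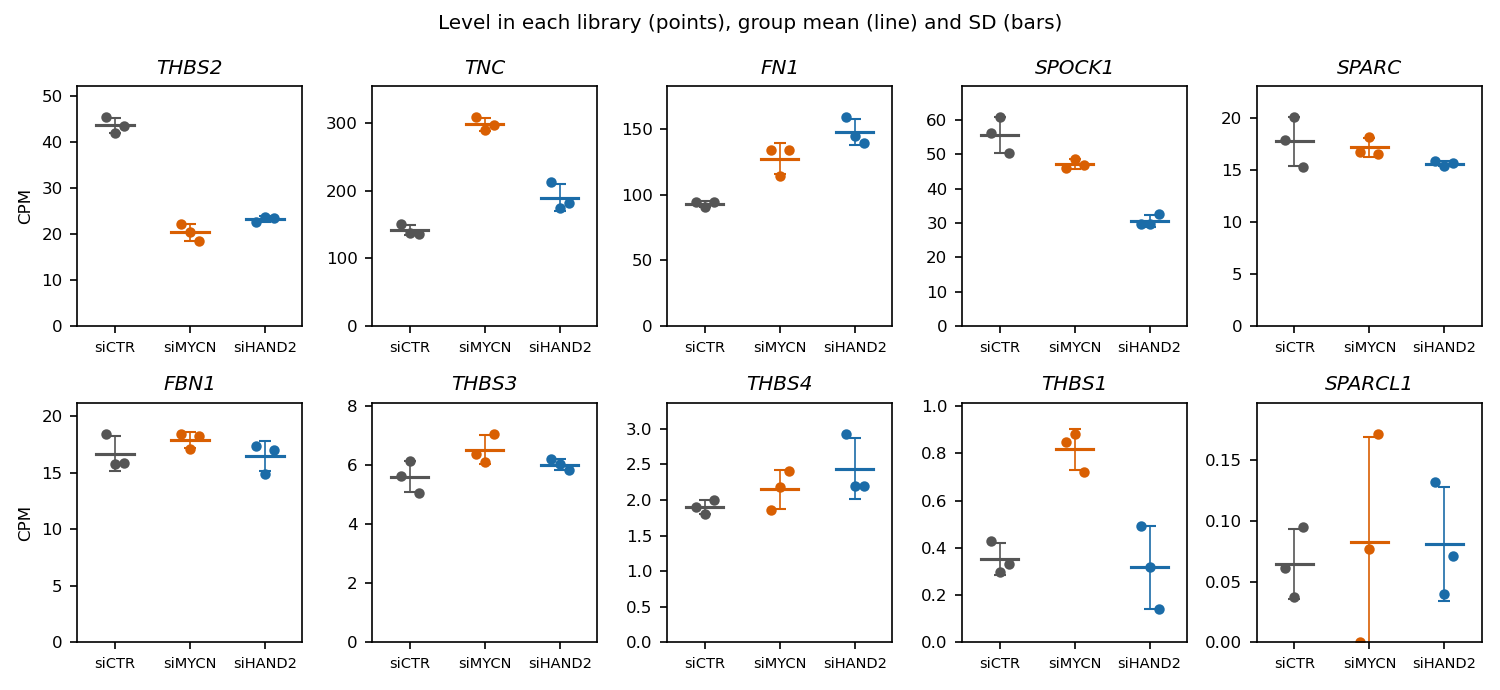
CPM of each member (y axis from 0, a scale for each gene) in the 9 libraries, shown as points by group with the mean as a line and the SD as bars. THBS2 is lower and TNC and FN1 are higher in all knockdown libraries than in any control, SPOCK1 is lowest in siHAND2, and THBS1 is highest in siMYCN at under 1 CPM.

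Of the 7 tested members other than THBS2, 2 were higher in siMYCN than in siCTR (TNC and FN1), 1 was lower (SPOCK1) and 4 did not pass the threshold of an adjusted p of 0.05. Over all tested genes, 24.5% were called higher and 11.4% lower in siMYCN. In siHAND2 the counts were again 2 higher (TNC and FN1), 1 lower (SPOCK1) and 4 not called, with 18.1% of all tested genes higher and 11.8% lower. The median difference of the 7 was 0.12 in siMYCN and 0.09 in siHAND2, beside 0.06 and 0.04 over all tested genes. The genome-wide split depends on scaling: as deposited, 68.3% (siMYCN) and 60.6% (siHAND2) of called genes were higher, against 50.7% and 45.9% after median-ratio rescaling. In the comparison between the knockdowns these shares were 42.4% and 49.0%. The directions of TNC, FN1 and SPOCK1 were the same under both scalings and under quantile normalization.

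TNC, an extracellular glycoprotein that loosens cell adhesion, had the widest rise among the tested members. On chromosome 9 (115019575 to 115118257, minus strand), it was measured at 151, 138 and 137 CPM in siCTR. The siMYCN libraries had 309, 289 and 297 CPM, and the siHAND2 libraries had 213, 174 and 182 CPM. The 3 groups did not overlap, with siMYCN highest and siHAND2 between it and the control. In siMYCN the mean was 210.4% of control, a difference of 1.07 (standard error 0.06, limma, adjusted p = 1.31e-08), and only 0.241% of tested genes differed as much in either direction. In siHAND2 it was 134% of control, a difference of 0.41 (adjusted p = 9.63e-05). The rise was smaller in siHAND2, and the direct comparison gave -0.66 (standard error 0.06, adjusted p = 5.2e-07).

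FN1 encodes fibronectin, which binds integrins and seeds matrix assembly. It lies on chromosome 2 (215360440 to 215436073, minus strand) and had 94.3, 90.5 and 94.1 CPM in siCTR. With siMYCN it had 134, 114 and 134 CPM, and with siHAND2 159, 145 and 139.7 CPM. All knockdown libraries exceeded the controls, and the siHAND2 libraries exceeded the siMYCN libraries. FN1 rose by 0.45 in siMYCN (standard error 0.06, limma, adjusted p = 3.61e-05) and by 0.66 in siHAND2 (adjusted p = 4.86e-07). The siHAND2 rise was larger by 0.21 (standard error 0.06, adjusted p = 0.0159), a call that was lost without siMYCN replicate 2 (0.14, adjusted p = 0.0889), without siHAND2 replicate 1 (0.16, adjusted p = 0.0699) and with no intensity trend in the fit (adjusted p = 0.067).

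Most fibroblast markers were also higher in the knockdown libraries. Of the 10 listed, 9 were in the table and 8 could be tested. All 8 were higher in siHAND2 and 6 in siMYCN, where 18.1% and 24.5% of all tested genes were called higher. The summed level of the 9 in the table was 224 to 240.4 CPM in siCTR, 276 to 284 CPM in siMYCN and 586 to 674 CPM in siHAND2. PDGFRA, a growth factor receptor of mesenchymal cells, went from 121 ± 4.49 CPM to 144 ± 3.49 and 341 ± 27.7 CPM. The matrix genes COL1A2 (1.03 and 2.67), COL6A3 (0.88 and 2.26) and LUM (0.84 and 2.45) rose in both knockdowns on the log2 scale. Not every marker had the order of FN1: COL3A1 averaged 1.42 ± 0.25 CPM in the controls, 4.19 ± 0.251 with siMYCN and 3.84 ± 0.271 with siHAND2, and COL5A1 had 5.41 ± 0.853, 5.15 ± 0.835 and 11.6 ± 1.93 CPM. Most of the summed level came from PDGFRA and from PDGFRB, which had 89.8 ± 3.07, 98.8 ± 5.18 and 179 ± 17.3 CPM. The untested one, the collagen gene COL1A1, was at 0.72 ± 0.207, 0.507 ± 0.159 and 0.363 ± 0.142 CPM. The part of these genes, or of any cells that carry them, in the FN1 and TNC results was not tested.

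SPOCK1 encodes testican-1, a proteoglycan of brain matrix that can inhibit proteases. It spans chromosome 5 from 136975298 to 137598379 (minus strand) and had 56.2, 60.8 and 50.3 CPM in siCTR. With siMYCN it had 46.0, 48.8 and 46.9 CPM, and with siHAND2 29.7, 29.7 and 32.7 CPM. The siHAND2 libraries were clearly the lowest, and the siMYCN libraries lay just under the lowest control. The siHAND2 mean was 55.0% of control, a difference of -0.84 (standard error 0.06, limma, adjusted p = 5.82e-08). In siMYCN it was 84.7% of control, a difference of -0.23 (adjusted p = 0.0102), and without siCTR replicate 2 this call was lost (-0.17, adjusted p = 0.0739). The direct comparison gave -0.61 (standard error 0.06, adjusted p = 2.06e-06).

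In the direct comparison of siHAND2 with siMYCN, 1 of the 7 tested members other than THBS2 was higher in siHAND2 (FN1). Another 2 were lower (TNC and SPOCK1) and 4 were not called. THBS2, chosen by its values in both knockdowns, is left out of these counts. Over all tested genes 11.4% were higher and 15.5% lower. The 4 not called were THBS3 (-0.10, limma, adjusted p = 0.464), THBS4 (0.12, adjusted p = 0.471), SPARC (-0.13, adjusted p = 0.27) and FBN1 (-0.12, adjusted p = 0.273).

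**Figure D3:**
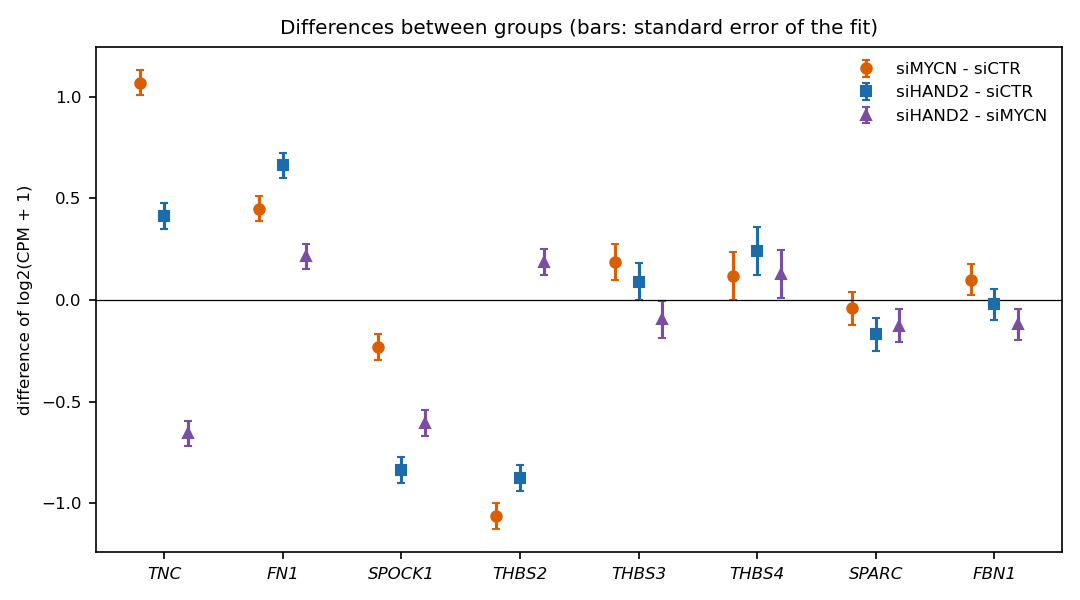
Differences of log2(CPM + 1) between groups for the 8 tested members, with standard errors of the fit as bars. TNC and FN1 lie above 0 and SPOCK1 and THBS2 below 0 in both knockdowns against siCTR, and the other 4 lie near 0. The THBS2 values in both knockdowns chose the set, and its differences are a description.

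Ratios of CPM taken within a library do not depend on how libraries are scaled. TNC to THBS2 was 3.33, 3.28 and 3.14 in the controls, 13.9, 14.2 and 16.0 with siMYCN and 9.39, 7.33 and 7.77 with siHAND2. The 3 groups did not overlap, with siMYCN highest; THBS2, part of this ratio, was chosen for its fall. FN1 to SPOCK1 averaged 1.68 ± 0.191 in the controls, 2.71 ± 0.323 with siMYCN and 4.84 ± 0.543 with siHAND2, the highest here. TNC to FN1 parted the knockdowns, with 2.35 ± 0.167 in siMYCN and 1.28 ± 0.0682 in siHAND2 on either side of 1.53 ± 0.0741 in siCTR. THBS2 to SPOCK1 was 0.432 ± 0.0457 in siMYCN, below siCTR (0.787 ± 0.0883), whereas siHAND2 (0.76 ± 0.0432) overlapped siCTR.

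**Figure D4:**
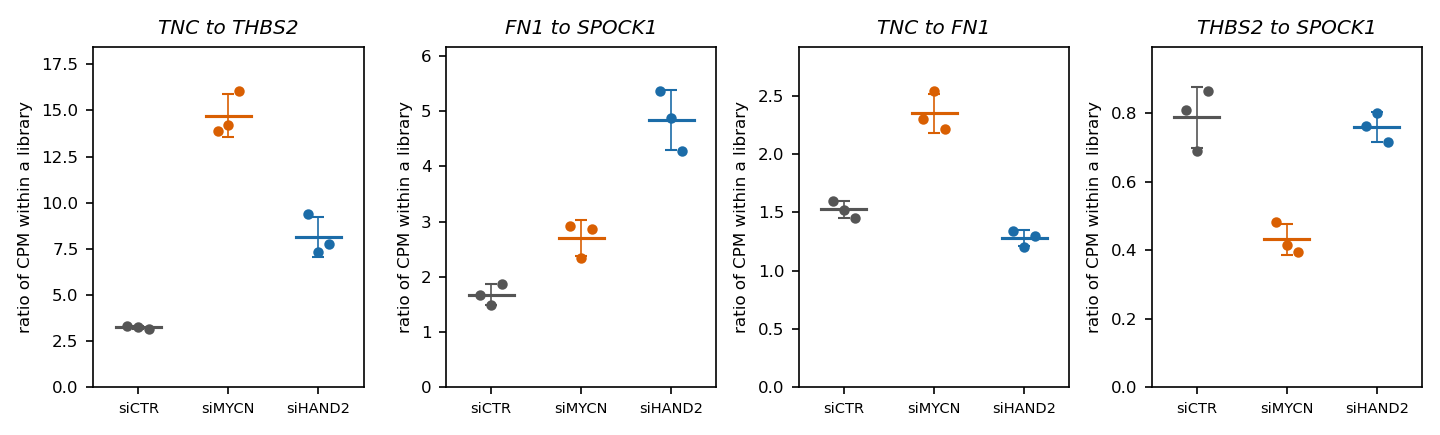
Ratio of the CPM of 2 members within each library (points), with group means as lines and SDs as bars, y axes from 0. TNC to THBS2 is highest in siMYCN and FN1 to SPOCK1 is highest in siHAND2; TNC to FN1 lies above control in siMYCN and below it in siHAND2.

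The remaining thrombospondins were lower in abundance. THBS3, which acts in skeletal and muscle tissue, lay on chromosome 1 (155195588 to 155209051) and ranged from 5.06 to 6.13 CPM in the controls, from 6.11 to 7.06 with siMYCN and from 5.83 to 6.20 with siHAND2. The groups overlapped, and its differences of 0.19 (limma, adjusted p = 0.119) and 0.09 (adjusted p = 0.486) were not called. Its neighbour MTX1, which overlaps it on the other strand, had 18.6 to 22.2 CPM over the 9 libraries. Since the use of strand in counting is not stated, reads of the overlap could have been given to either gene. THBS4, expressed in muscle, tendon and nervous tissue (chromosome 5, 79991311 to 80083287, plus strand), ranged from 1.80 to 1.99 CPM in the controls, from 1.85 to 2.40 with siMYCN and from 2.19 to 2.93 with siHAND2. All siHAND2 libraries lay above siCTR, but the difference of 0.24 (standard error 0.12, adjusted p = 0.136) did not pass the threshold, at 42.0 to 89.0 reads per library. In siMYCN it differed by 0.12 (adjusted p = 0.475).

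THBS1, on chromosome 15 (39581079 to 39599466, plus strand), lay below the filter. Its levels were 0.428, 0.30 and 0.332 CPM in the controls. With siMYCN they were 0.846, 0.882 and 0.72 CPM, and with siHAND2 0.493, 0.319 and 0.142 CPM. They stand for 14, 8 and 7 control reads, 21, 23 and 21 reads with siMYCN and 15, 8 and 4 reads with siHAND2. All siMYCN libraries were above every other library, and the siMYCN mean was 2.31 times that of siCTR. In a fit without the filter, over 25084 genes, THBS1 differed by 0.42 in siMYCN (standard error 0.10, limma, adjusted p = 0.00611) and by -0.05 in siHAND2 (adjusted p = 0.815), and the direct comparison gave -0.47 (adjusted p = 0.00363). THBS1 and THBS2 thus lay on opposite sides of the control in siMYCN, at very different depths. FSIP1, on the other strand, overlaps THBS1 and was at 0.564 to 1.61 CPM. It was lower in siMYCN (-0.38, limma, adjusted p = 0.0469), at 0.564, 1.38 and 0.994 CPM against 1.49 to 1.61 CPM in siCTR. This call was not followed through the alternative fits. FSIP1 and THBS1 lay on opposite sides of the control there, and sharing of reads between them was not tested. MIR17HG, the host of a microRNA cluster known to repress THBS1 in other tumours, averaged 31.7 CPM in the controls, 28.2 with siMYCN and 28.1 with siHAND2. Its differences of -0.16 (adjusted p = 0.142) and -0.18 (adjusted p = 0.115) were not called. Both passed under median-ratio rescaling (adjusted p = 0.0449 and 0.0469), the former also in a fit of both groups alone (adjusted p = 0.0396) and the latter with replicate number as a block (adjusted p = 0.0365). With 1 library left out the siHAND2 value ran from -0.28 (adjusted p = 0.00735, without siHAND2 replicate 3) to -0.078. MCM7, the host of a related microRNA cluster, differed by -0.17 in siMYCN (adjusted p = 0.0117), a call lost under quantile normalization (-0.11, adjusted p = 0.0719) and without siCTR replicate 3 (-0.15, adjusted p = 0.0529), and had 0.022 in siHAND2 (adjusted p = 0.759).

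SPARC, which binds collagen and calcium, averaged 17.8 ± 2.37 CPM in the controls, 17.2 ± 0.919 with siMYCN and 15.6 ± 0.247 with siHAND2. It was not called in either knockdown (-0.04, limma, adjusted p = 0.736, and -0.17, adjusted p = 0.13). The spread in siCTR, from 15.3 to 20.1 CPM, covered all 6 knockdown values, and without siCTR replicate 3, the lowest control, SPARC passed as lower in siHAND2 (-0.27, adjusted p = 0.017). FBN1, the core of microfibrils, had 16.7 ± 1.51, 17.9 ± 0.729 and 16.5 ± 1.33 CPM in the same order, with differences of 0.10 (adjusted p = 0.339) and -0.02 (adjusted p = 0.862). In GRCh38, SPARC lies on chromosome 5 (151661096 to 151686975, minus strand), FBN1 on chromosome 15 (48408313 to 48645721, minus strand) and SPARCL1 on chromosome 4 (87473335 to 87531061, minus strand). SPARCL1, a relative of SPARC made by glia and endothelium, had 0 to 5 reads per library. Its library with 0 reads (siMYCN replicate 1) allows up to 0.121 CPM, counting error alone, so no difference was detectable at this depth.

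Related genes were taken from lists of other matricellular proteins, receptors, elastic fibre proteins, proteases and proteins with type 1 repeats. Of 20 other matricellular genes, 15 were in the table and 4 could be tested, of which 1 was higher in siMYCN (24.5% of all tested genes) and 1 higher and 1 lower in siHAND2 (18.1% and 11.8% of all); 10 of the 15 stayed below 1 CPM in every library. Tenascin-R (TNR), a brain relative of TNC, rose in siMYCN from 19.9 ± 1.51 to 43.0 ± 3.39 CPM (1.07, limma, adjusted p = 5.75e-08). It was at 18.9 ± 1.70 CPM in siHAND2 (-0.07, adjusted p = 0.524), and the direct comparison gave -1.14 (adjusted p = 6.68e-09). In siHAND2, SMOC2 fell (-0.32, adjusted p = 0.00552) and FSTL1 rose (0.29, adjusted p = 0.000698), both of them relatives of SPARC.

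Among 16 tested receptors, 10 were higher and 1 lower in siMYCN (24.5% and 11.4% of all tested genes), with a median difference of 0.16. In siHAND2, 3 were higher and 3 lower (18.1% and 11.8% of all), with a median of -0.05. Between the knockdowns 11 receptors were lower in siHAND2 and 1 was higher (15.5% and 11.4% of all). ITGA9, an integrin subunit that binds tenascin-C, rose from 41.4 ± 1.80 to 52.4 ± 2.31 CPM in siMYCN (0.33, adjusted p = 0.000121) and by 0.15 in siHAND2 (adjusted p = 0.0362), where the call was lost under median-ratio rescaling (0.11, adjusted p = 0.122), under quantile normalization, with no intensity trend and without siCTR replicate 1, siCTR replicate 3 or siHAND2 replicate 1. LRP1, the endocytic receptor that clears thrombospondins, rose by 0.16 in siMYCN (adjusted p = 0.00967), not called under median-ratio rescaling (0.10, adjusted p = 0.0906) or quantile normalization (0.11, adjusted p = 0.072), and by 0.43 in siHAND2 (adjusted p = 1.7e-06). CNTN1, a neuronal adhesion molecule that binds tenascins, fell in siHAND2 from 126 ± 12.9 to 77.7 ± 4.51 CPM (-0.69, adjusted p = 4.11e-07). In siMYCN it differed by 0.16 (adjusted p = 0.055), which passed with replicate number as a block (adjusted p = 0.0316). This value rested on the controls left in, from 0.078 without siCTR replicate 3 to 0.22 (adjusted p = 0.0196) without siCTR replicate 2. ITGB5, an integrin subunit, fell in siHAND2 (-0.60, adjusted p = 2.84e-06). It was also the 1 receptor called lower in siMYCN (-0.19, adjusted p = 0.0332), a call lost with no filter (adjusted p = 0.0602) and without any one of siCTR replicates 1, 2 and 3 and siMYCN replicates 2 and 3 (-0.20 to -0.16, adjusted p = 0.0565 to 0.121). CD36 and CD47, the thrombospondin-1 receptors, were far apart in level: CD36 stayed at 0.184 to 0.461 CPM and was not tested, and CD47 had 152 ± 2.31 CPM in siCTR and rose in siMYCN (0.26, adjusted p = 0.00112). These 2 genes were named after their values were seen.

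The elastic fibre and fibrillin list had 17 tested genes, of which 8 were higher and 3 lower in siMYCN and 12 higher and 1 lower in siHAND2. The shares over all tested genes were 24.5% and 11.4%, and 18.1% and 11.8%. The list's medians were 0.19 and 0.34, beside 0.06 and 0.04 over all. LOX, which cross-links collagen and elastin, was lower in both knockdowns: it ranged from 16.2 to 18.2 CPM in the controls, from 8.37 to 9.39 with siMYCN and from 9.18 to 11.5 with siHAND2. Neither knockdown overlapped the controls, and the differences were -0.86 (limma, adjusted p = 1.21e-06) and -0.68 (adjusted p = 1.22e-05). LTBP1, which stores latent TGF-beta on fibronectin and fibrillin, went opposite ways, from 32.6 ± 2.17 CPM to 22.6 ± 0.672 in siMYCN (-0.51, adjusted p = 7.21e-06) and 47.4 ± 2.32 in siHAND2 (0.53, adjusted p = 4.69e-06). LTBP3 rose by 0.33 and 0.45 and EFEMP2 by 0.45 and 0.30, all called.

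Of 15 tested proteases and inhibitors, 6 were higher and 1 lower in siMYCN and 8 higher and 1 lower in siHAND2 (medians 0.16 and 0.27), where 24.5% and 11.4%, and 18.1% and 11.8%, of all tested genes were called. ADAMTS5, a proteoglycan-cleaving enzyme, rose in siHAND2 from 4.09 ± 0.59 to 13.9 ± 0.503 CPM (1.55, limma, adjusted p = 6.2e-09). It was at 3.38 ± 0.335 CPM in siMYCN (-0.21, adjusted p = 0.109). There it passed as lower under quantile normalization (-0.28, adjusted p = 0.0432) and without siCTR replicate 3 (-0.31, adjusted p = 0.0245). ADAMTS1, which can cleave THBS1 and THBS2, rose in siHAND2 (0.66, adjusted p = 6.76e-07) and was lower in siMYCN (-0.20, adjusted p = 0.0221), a call lost without siCTR replicate 1 (adjusted p = 0.113) or siMYCN replicate 3 (adjusted p = 0.0932). ADAMTS9 went the other way, up in siMYCN (0.66, adjusted p = 1.71e-08) and down in siHAND2 (-0.22, adjusted p = 0.000605). PLAT, a plasminogen activator, rose by 0.97 in siHAND2 (adjusted p = 2.31e-05).

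Proteins with thrombospondin type 1 repeats had 13 tested genes, 6 higher and 1 lower in siMYCN and 6 higher and 5 lower in siHAND2 (medians 0.16 and 0.22), against 24.5% and 11.4%, and 18.1% and 11.8%, of all tested genes. HMCN1 (hemicentin-1), a large matrix protein, averaged 18.7 ± 1.04 CPM in the controls, 15.0 ± 1.69 with siMYCN and 5.36 ± 0.76 with siHAND2, where it changed by -1.64 (limma, adjusted p = 1.92e-09). In siMYCN it differed by -0.31 (adjusted p = 0.019), a call that ended when replicate 1 or 3 of siCTR or replicate 1 of siMYCN was left out (-0.29, -0.28 and -0.22). The netrin receptors UNC5A (0.96, adjusted p = 2.58e-05) and UNC5D (0.94, adjusted p = 5.28e-07) and the adhesion receptor ADGRB3 (0.82, adjusted p = 6.59e-08) rose in siHAND2. UNC5D also rose in siMYCN (0.67, adjusted p = 2.2e-05). Of 9 tested neuroblast markers, 8 were higher and 1 was not called in siMYCN (24.5% of all tested genes were higher and 11.4% lower). In siHAND2, 2 were higher, 3 lower and 4 not called (18.1% of all tested genes were higher and 11.8% lower). STMN2 (0.71 and 0.95) and GAP43 (0.63 and 0.77) rose in both knockdowns, whereas DBH rose in siMYCN (0.38) and fell in siHAND2 (-1.01). TH (0.36 and -0.70) and DDC (0.30 and -0.25), like DBH enzymes of catecholamine synthesis, were also called in both knockdowns. CHGB rose in siMYCN (0.70) and had -0.03 in siHAND2 (adjusted p = 0.738).

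**Figure D5:**
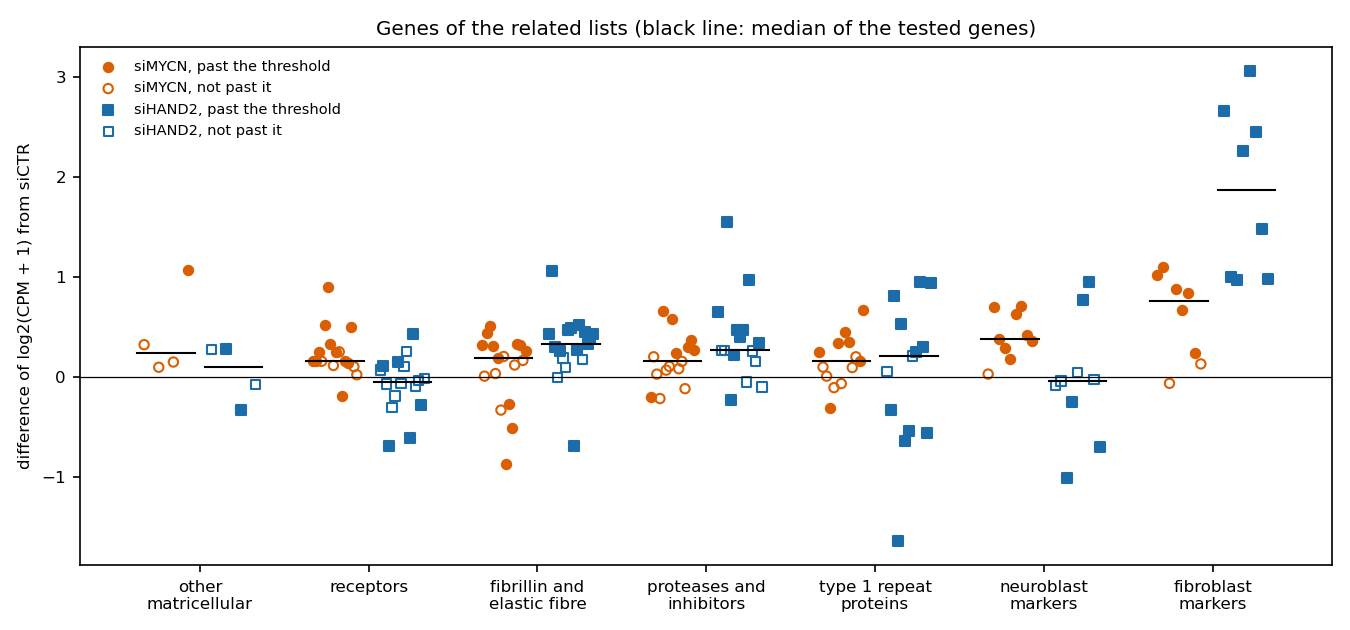
Differences of log2(CPM + 1) from siCTR for every tested gene of the related lists other than the microRNA hosts, by knockdown; filled symbols passed the adjusted p threshold, open ones did not, and black lines are list medians. Fibroblast markers have the highest medians, 0.76 in siMYCN and 1.87 in siHAND2, and HMCN1 in the type 1 repeat list is the lowest point.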

How the data were processed

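RNA-seq of 9 LAN5 libraries (3 each of siCTR, siMYCN and siHAND2) was analysed from the 1 table of the series. The authors deposited CPM values, with a constant of 0.0001 in every value, and column sums were 1000002.4 to 1000002.6. STAR 2.5.1 and Partek are named in the submitters' processing notes, with builds hg19 and GRCh37. The coordinates of the table are those of GRCh38, however: 91.4% of 18213 gene starts matched RefSeq GRCh38.p14 within 5000 bases, against 5.6% for GRCh37. Counter, use of strand and annotation are not given in the sources used here. The smallest CPM step gave 21.1 to 32.7 M assigned reads per library. Among values of up to 20 steps, the share lying within 0.02 steps of a whole read was 79.2% to 80.7%, short of the 95% set for a count model, so none was used.

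The log2(CPM + 1) values of 14495 genes were modelled by group in limma 3.58.1 (R 4.3.3), with an intensity trend. Tests were two-sided, with Benjamini-Hochberg adjustment over all genes and a threshold of 0.05. The fold scale understates low genes. The model was checked on simulated whole counts with 1 fixed spread setting for all genes. Of 100 genes averaging at least 5 CPM and changed by 0.5 (log2) in siMYCN, 96.0% were called. This does not measure how often such changes are found in the real libraries or in lower genes. Transcript lengths are those of canonical GENCODE v44lift37 transcripts, matched by symbol. The members and lists were chosen with earlier results of these data known. All members are named, with up to 4 called genes per list (largest difference, mean at least 5 CPM) MIR17HG whatever its call, and the 5 genes most like THBS2. CD36, CD47, TH, DDC, ELAVL4, COL3A1, COL5A1, PDGFRB and COL1A1 were named after their values were seen.

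Same-numbered libraries of siCTR and each knockdown deviated together to a small degree (r of 0.102 to 0.266 across genes). Differently numbered ones had -0.273 to 0.179, so the ranges overlapped. The reported tests were not paired, and the replicate number was used as a block only in an alternative fit. For the knockdowns against each other, same-numbered libraries did not all deviate together (0.434, -0.129 and 0.245). Alternatives were other pseudocounts, filters and scalings, 2-group fits, no trend, a replicate block and leaving out each library.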

Additional observations from a re-analysis of the deposited data

Results flagged for a closer look

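The response of TNC, SPOCK1 and FN1 differed between the knockdowns in the direct comparison of siHAND2 with siMYCN (limma, adjusted over all genes). TNC was lower in siHAND2 (-0.66, in 3 of 3 libraries), as was SPOCK1 (-0.61, in 3 of 3). FN1 was higher in siHAND2 (0.21, in 3 of 3), a call lost when some single libraries were left out. THBS2 was also higher there (0.19, in 3 of 3). It had been chosen by its values in both knockdowns and is described without a test.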

How the results depend on the processing

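Against siCTR, the number of members called higher stayed within 1.5 times of 2 under every alternative. The number called lower in siMYCN (1 gene, without THBS2) ran from 0 to 1 and that in siHAND2 from 1 to 2 when single libraries were left out. In the direct comparison, FN1 was the 1 member other than THBS2 called higher in siHAND2. This call was lost with no intensity trend and when siMYCN replicate 2 or siHAND2 replicate 1 was left out. Counts over all genes stayed within 1.5 times: 4013 to 5854, 3075 to 4290 and 2909 to 3940 with a library left out, and 5895, 5089 and 4689 with replicate number as a block. The block changed no call of a member and, beside MIR17HG and CNTN1, the call of 1 other named gene, GAP43 between the knockdowns (0.14, adjusted p = 0.0498). With a library left out, signs changed only for uncalled values: SPARC (-0.14 to 0.046), ADGRB3 (-0.024 to 0.073) and UNC5A (-0.0042 to 0.27) in siMYCN, FBN1 (-0.060 to 0.049), MCM7 (-0.028 to 0.061) and CHGB (-0.11 to 0.024) in siHAND2, and MIR17HG between the knockdowns (-0.12 to 0.082). Under median-ratio rescaling ADGRB3 in siMYCN was -0.044 and MCM7 in siHAND2 -0.022, and under quantile normalization ADGRB3 was -0.066. The cause of these shifts was not tested. THBS1, SPARCL1 and THBS4 are limited by depth.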
